A study of Mus musculus with 8 samples.

Results

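The 10 genes described here carry out antigen presentation by the major histocompatibility complex (MHC), the system by which cells display peptides to T cells. They were taken by symbol from the 17810 genes measured in the liver: the class I heavy chains H2-K1 and H2-D1 with their light chain B2m, the class II chains H2-Aa, H2-Ab1 and H2-Eb1, the peptide exchange factor H2-DMa and H2-DMb1, the invariant chain Cd74 and the class II coactivator Ciita. Total liver RNA was sequenced from 4 WT and 4 HKO male mice, with 1 library per liver. HKO mice lack miR-33 in hepatocytes, because floxed miR-33 is cut out by a Cre transgene that the albumin promoter drives (labelled AlbCRE). Whether the transgene acts in other liver cells was not tested here. Both genotypes ate a CD-HFD, a high-fat diet without choline that leads to a fatty liver, for 3 months from the age of 8 weeks, and were 5 months old when the livers were taken. No liver of mice on another diet was compared here, so all values belong to livers on this diet.

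MHC class I molecules stand on nearly all nucleated cells, hepatocytes included, and show fragments of proteins made inside the cell. The fragments are cut by the proteasome, pumped into the endoplasmic reticulum by the Tap1 and Tap2 transporter and bound there by a heavy chain paired with B2m. MHC class II molecules are made mainly by dendritic cells, B cells and macrophages, in the liver also by Kupffer cells, its resident macrophages, and show fragments of proteins taken up from outside.

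Promoters of both classes share a module of short boxes to which RFX, CREB and NF-Y factors bind, and on which the coactivators CIITA and NLRC5 dock. The module is given here because it is the regulatory sequence that both classes share. In the RefSeq promoters of GRCm38.p6, 7 of the 10 genes were examined, each with an entry whose listed start matched. In 6 of these the letters TGANG (an X2-like box) stood 15 to 40 bases before ATTGG (the Y box core). The distance was counted from first letter to first letter on the strand of the gene. The same arrangement on the gene strand was found in 989 of 32851 promoters (3.01%), and on either strand in 5.47%. ATTGG alone was in 37.4% and TGANG alone in 89.4%, on either strand. H2-DMa had no such pair. H2-Ab1 and Ciita had no entry, and the promoter of Cd74 was not examined. The windows lie at chr17:34000344-34000408 (H2-K1, minus strand), chr17:35262970-35263037 (H2-D1, plus strand), chr2:122147589-122147653 (B2m, plus strand), chr17:34287852-34287917 (H2-Aa, minus strand), chr17:34305761-34305827 (H2-Eb1, plus strand), chr17:34153082-34153149 (H2-DMb1 and plus strand). Capitals mark the TGANG and ATTGG letters. In H2-D1, H2-Eb1 and H2-DMb1 a pair of overlapping TGANG matches preceded the same ATTGG, so their capitals run together. A match of these letters is a description and not a measured binding site.
H2-K1: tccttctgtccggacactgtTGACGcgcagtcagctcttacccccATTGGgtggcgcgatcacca
H2-D1: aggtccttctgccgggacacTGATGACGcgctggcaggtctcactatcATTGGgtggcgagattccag
B2m: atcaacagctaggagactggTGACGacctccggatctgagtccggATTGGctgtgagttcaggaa
H2-Aa: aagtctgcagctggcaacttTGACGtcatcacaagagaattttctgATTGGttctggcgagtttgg
H2-Eb1: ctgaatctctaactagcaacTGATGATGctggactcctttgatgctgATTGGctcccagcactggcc
H2-DMb1: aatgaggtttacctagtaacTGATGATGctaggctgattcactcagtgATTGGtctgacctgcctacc

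The first letters of the paired boxes were 25 bases apart in H2-K1 and B2m, 26 in H2-Aa, 27 in H2-Eb1 and 28 in H2-D1 and H2-DMb1. For the inner of the overlapping matches they were 25 apart in H2-D1, 24 in H2-Eb1 and 25 in H2-DMb1, so the spacing overlapped between class I and class II genes. The other sequence of interest is the microRNA that HKO hepatocytes lack. Its mature 5p strand lies at GRCm38.p6 chr15:82198127-82198147 on the plus strand, and the capitals mark its seed, the bases that pair with a target. The matching site, CAATGCA, occurred in the longest protein-coding transcript of 0 of the 10 genes, while 2073 of 11636 tested genes with such a transcript (17.8%) held it. The search covered whole transcripts, coding part included, and the 17.8% was not matched for length. Transcripts of the 10 genes had 860 (B2m) to 2102 bases (H2-D1), apart from Ciita with 6007. The level of Mir33 was not analysed here, and genotypes rest on the labels.
mmu-miR-33-5p: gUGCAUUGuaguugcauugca

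Between 12174352 and 18319731 reads per WT liver and 12509199 and 18735791 per HKO liver were assigned to genes, as estimated counts. Levels are given in CPM, estimated counts after the libraries were scaled to one size, and 3 counts, taken as the smallest detectable level, corresponded to 0.149 to 0.255 CPM (counting error only). Log2 CPM correlated between livers of 1 genotype with r from 0.980 to 0.984 in WT and 0.971 to 0.980 in HKO mice. Alb, the most abundant hepatocyte marker, was between 47064 and 98815 CPM in every liver. The HKO liver 2 stood apart: Epcam, a bile duct gene, was at 16.5 CPM there and at 0.451 to 1.02 CPM in the other HKO livers, and the summed level of bile duct markers was 111 CPM against 31.0 to 53.3 CPM elsewhere. Values without that liver are given beside some of the results that it changed. The libraries of each genotype were numbered together, so that an effect of library order cannot be told apart from genotype. In whole liver, a fall in the number of cells of a type and a fall in RNA per cell cannot be told apart either.

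Per kilobase of transcript, the genes spanned more than 4 orders of level with the same ranking at the top in both genotypes. B2m was highest at 3072 CPM per kb in WT and 2953 in HKO livers, followed by H2-K1 at 392 and 391 and H2-D1 at 146 and 130.9. Every liver kept these class I genes in this order and above Cd74. Cd74 followed at 17.0 CPM per kb in WT and 17.9 in HKO livers, and H2-Aa at 9.32 and 9.68. H2-Eb1 (4.25 and 3.93) and H2-Ab1 (4.04 and 4.91) were neighbours whose ranges overlapped within each genotype. H2-DMb1 (0.738 and 1.24), H2-DMa (0.498 and 0.652) and Ciita (0.108 and 0.0605) formed the low end. The ranges of H2-DMb1 and H2-DMa overlapped in WT livers. In HKO livers H2-DMb1 (0.961 to 1.59) lay above H2-DMa (0.438 to 0.892).

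None of the 9 genes that passed the expression filter differed between HKO and WT livers at an adjusted p under 0.05 by edgeR's quasi-likelihood test. Over all genes, 624 of 12395 (5.03%) passed this threshold, 1.66% of them higher and 3.37% lower in HKO livers as shares of the genes tested. At an unadjusted p under 0.05 the count among the 9 was 0 by edgeR, by DESeq2 and by limma-voom, beside 19.8% of all tested genes by edgeR. The HKO and WT values overlapped for 10 of the 10 genes, while they did not overlap for 12.5% of all tested genes. The median log2 fold change of the 9 genes was 0.05, with 5 positive and 4 negative values, and that of all tested genes was 0.01. Ciita, with 1 to 15 counts per liver, fell under the filter.

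**Figure D1:**
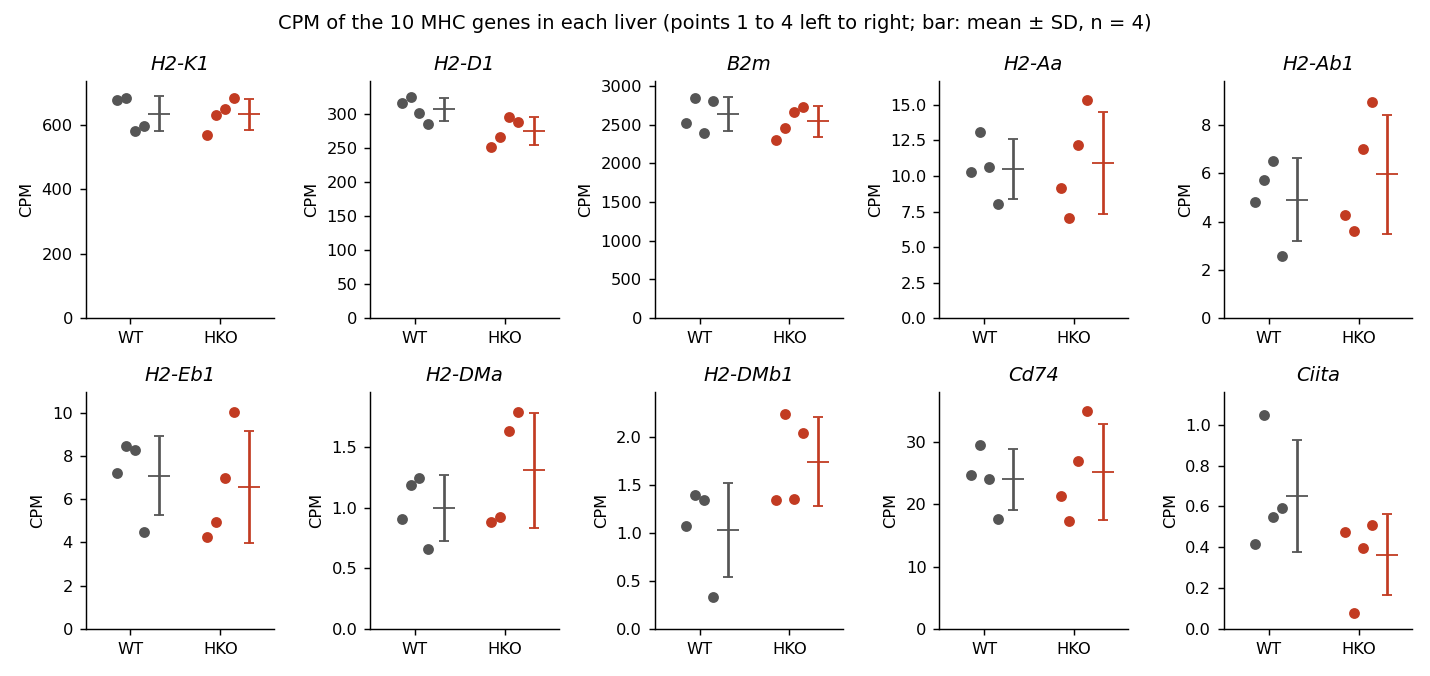
CPM (y axis, linear from 0) of each of the 10 MHC genes in the 4 WT (grey) and 4 HKO (red) livers; points run from liver 1 to 4 and bars give the mean ± SD (n = 4). The WT and HKO points overlap in every panel, with a narrow spread for H2-K1, H2-D1 and B2m and a wide spread for the class II genes.

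H2-K1 and H2-D1 encode the classical class I heavy chains. H2-K1 (chr17:33996012-34000347, minus strand) was at 678, 685, 583 and 597 CPM in WT livers 1 to 4 and at 568, 632, 649 and 682 CPM in HKO livers 1 to 4. The highest and the lowest HKO liver enclosed all but 1 of the WT values, and the means were 635 ± 53.2 and 633 ± 48.3 CPM (SD, n = 4). The log2 fold change was -0.01 ± 0.09 (SE; adjusted p = 0.984, edgeR), and its 95% confidence interval ran from 0.867- to 1.14-fold. The sign turned to 0.03, 0.04 and 0.04 without WT liver 1, WT liver 2 and HKO liver 1 in turn.

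H2-D1 (chr17:35263094-35267497, plus strand) measured 315, 325, 301 and 285 CPM in the WT livers and 251, 265, 296 and 288 CPM in the HKO livers. The highest 3 values were from WT livers and the lowest 2 from HKO livers, but WT liver 4 lay below HKO livers 3 and 4. Its log2 fold change of -0.16 ± 0.08 (SE) did not pass the test (adjusted p = 0.324, edgeR), with an interval of 0.793- to 1.02-fold. This gene gave the lowest adjusted p of the 9 over all 18 fits, 0.115 under scaling by the total count. Both heavy chains had fractional estimated counts in 8 of 8 livers, which shows that reads were split between features.

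B2m (chr2:122147687-122153082, plus strand), the light chain that all class I molecules need to reach the cell surface, was the most abundant of the 10 genes. Its level was 2525, 2844, 2392 and 2807 CPM in WT livers and 2304, 2462, 2667 and 2727 CPM in HKO livers. The 2 highest livers were WT and the lowest was HKO, with full overlap between. The log2 fold change was -0.06 ± 0.10 (SE; adjusted p = 0.818, edgeR; 0.826- to 1.12-fold). For the class I genes, then, the highest liver of a genotype exceeded its lowest by 1.14- to 1.20-fold, and the coefficient of variation was 5.66% to 8.38%.

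The ratio of H2-D1 to H2-K1 in estimated counts removes the library scaling. It was 0.465, 0.474, 0.516 and 0.478 in WT livers and 0.442, 0.420, 0.456 and 0.422 in HKO livers, so the 4 HKO values lay below the 4 WT values. The log2 difference was -0.15, with p = 0.0286 in a two-sided exact permutation test, the smallest that 70 allocations of the livers allow, and an adjusted p of 0.114 over the 8 ratios computed (Benjamini-Hochberg). The 8 pairs were chosen after the values had been seen, and the ratio did not pass the adjusted threshold. Leaving out 1 liver gave differences from -0.175 to -0.120, with an exact p of 0.0571 without WT liver 3 or WT liver 4. The ratio of H2-K1 to B2m overlapped between genotypes, with 0.213 to 0.268 in WT and 0.243 to 0.257 in HKO livers (exact permutation p = 0.600).

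The class II chains pair an alpha with a beta chain. H2-Aa and H2-Ab1 form the I-A molecule, and H2-Eb1 is the beta chain of I-E. H2-Aa (chr17:34282744-34287823, minus strand) was at 10.3, 13.1, 10.6 and 8.02 CPM in WT livers and at 9.18, 7.03, 12.2 and 15.3 CPM in HKO livers. H2-Ab1 (chr17:34263227-34269418, plus strand) followed with 4.79, 5.72, 6.51 and 2.56 CPM in WT livers and 4.25, 3.63, 6.99 and 8.94 CPM in HKO livers. For both genes HKO liver 4 was highest and WT liver 4 and HKO liver 2 were the lowest pair of the 8, so the ranges of the genotypes overlapped. The log2 fold changes were 0.05 ± 0.23 for H2-Aa (adjusted p = 0.934) and 0.27 ± 0.34 for H2-Ab1 (adjusted p = 0.724; SE, edgeR). Their intervals ran from 0.729- to 1.48-fold and from 0.714- to 2.04-fold. For H2-Ab1, leaving out 1 liver gave 0.02 to 0.45, the lowest values being 0.02 without HKO liver 4 and 0.06 without WT liver 4.

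H2-Eb1 (chr17:34305867-34316674, plus strand) was at 7.19, 8.45, 8.26 and 4.47 CPM in WT livers and at 4.25, 4.94, 6.99 and 10.05 CPM in HKO livers. HKO liver 4 was again highest, while HKO liver 1 and WT liver 4 were lowest. The log2 fold change was -0.12 ± 0.28 (SE; adjusted p = 0.871, edgeR; 0.596- to 1.42-fold), and it turned to 0.04 without HKO liver 1. The alpha chain partner of I-E, H2-Ea, was not analysed here. Among the other class II genes, H2-Ob and H2-Oa, which restrain peptide exchange in B cells, had at most 14 and 3 counts in a liver, H2-Eb2 at most 2 and H2-DMb2 at most 8, so that 0 of these 4 genes passed the filter.

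H2-DMa and H2-DMb1 form H2-M, which takes the invariant chain fragment out of the class II groove so that another peptide can bind. H2-DMa (chr17:34122832-34139101, plus strand) rested on 10 to 29 counts, with 0.907, 1.19, 1.24 and 0.656 CPM in WT livers and 0.877, 0.926, 1.63 and 1.79 CPM in HKO livers. H2-DMb1 (chr17:34153191-34160229, plus strand) rested on 5 to 29 counts, with 1.07, 1.40, 1.34 and 0.329 CPM in WT livers and 1.35, 2.24, 1.35 and 2.04 CPM in HKO livers. For H2-DMb1, 2 HKO livers lay above all WT livers and the other 2 lay between the WT values. Its log2 fold change of 0.72 ± 0.39 (SE) was the largest of the 9 genes and did not pass the test (adjusted p = 0.340, edgeR), with an interval from 0.914- to 2.98-fold. Leaving out 1 liver gave 0.43 (without WT liver 4) to 0.90. H2-DMa gave 0.37 ± 0.35 (SE; adjusted p = 0.623, edgeR; 0.760- to 2.19-fold). With H2-DMb2, a near copy, added to H2-DMb1, the log2 fold change was 0.76 ± 0.36 (SE; adjusted p = 0.262, edgeR).

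Cd74 is the invariant chain, which plugs the class II groove and guides the molecule to the endosome, and it was the most abundant class II gene. It was at 24.7, 29.5, 24.2 and 17.7 CPM in WT livers and at 21.3, 17.4, 27.0 and 35.1 CPM in HKO livers. As for H2-Aa, HKO liver 4 was highest and HKO liver 2 and WT liver 4 were lowest. The log2 fold change was 0.07 ± 0.22 (SE; adjusted p = 0.911, edgeR; 0.738- to 1.49-fold), and under scaling by the total count it turned to -0.03, as that of H2-Aa turned to -0.05. Without HKO liver 4 the values were -0.13 for Cd74 and -0.15 for H2-Aa, and without WT liver 4 they were -0.05 for both.

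Ciita (chr16:10480072-10527640, plus strand), the coactivator on which class II transcription depends, was near the limit of detection. Its counts were 5, 15, 11 and 9 in WT livers and 7, 1, 7 and 6 in HKO livers, or 0.413 to 1.05 and 0.0772 to 0.510 CPM. HKO liver 2 was lowest, with 1 count, and WT liver 2 highest. Without the expression filter the log2 fold change was -0.81 ± 0.51 (SE; adjusted p = 0.492, edgeR), so that a difference was not detectable at this depth.

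**Figure D2:**
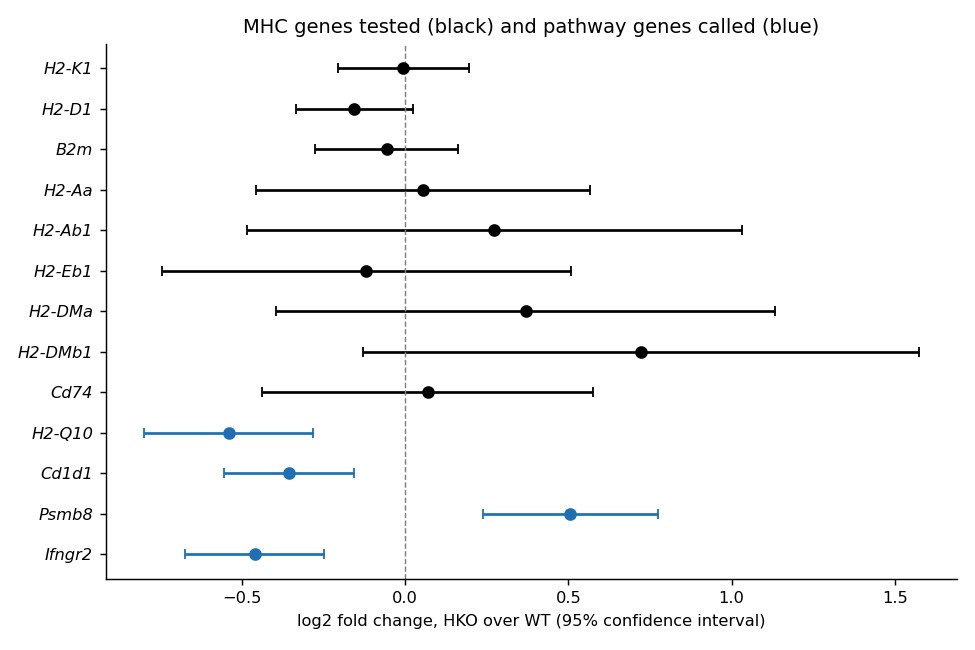
Log2 fold change of HKO over WT livers (x axis) with its 95% confidence interval for the 9 MHC genes tested (black) and for the 4 genes of the pathway lists that passed the test (blue), from edgeR. The black intervals all cross 0 and are narrow for H2-K1, H2-D1 and B2m and widest for H2-DMb1.

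The class II genes varied widely between livers of 1 genotype, and did so together. Within a genotype the highest liver exceeded the lowest by 1.64- to 4.25-fold over H2-Aa, H2-Ab1, H2-Eb1, H2-DMa, H2-DMb1 and Cd74, with coefficients of variation of 19.9% to 47.5%. The fold between the genotypes was 0.921 to 1.29 for these genes except H2-DMb1, where it was 1.65. After the genotype means had been subtracted, log2 CPM of H2-Aa, H2-Ab1, H2-Eb1 and Cd74 correlated pair by pair with Pearson's r of 0.882 to 0.990 over the 8 livers, and H2-DMa correlated with them at 0.897 to 0.968. H2-DMb1 followed them less closely, at 0.367 to 0.648. The class I genes correlated among themselves at 0.537 to 0.851 and with H2-Aa, H2-Ab1, H2-Eb1 and Cd74 at 0.148 to 0.833. With H2-DMa and H2-DMb1 they ranged from -0.217 (B2m with H2-DMb1) to 0.857 (H2-D1 with H2-DMa). These values are descriptions over 8 livers whose genes share a library and its depth.

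**Figure D3:**
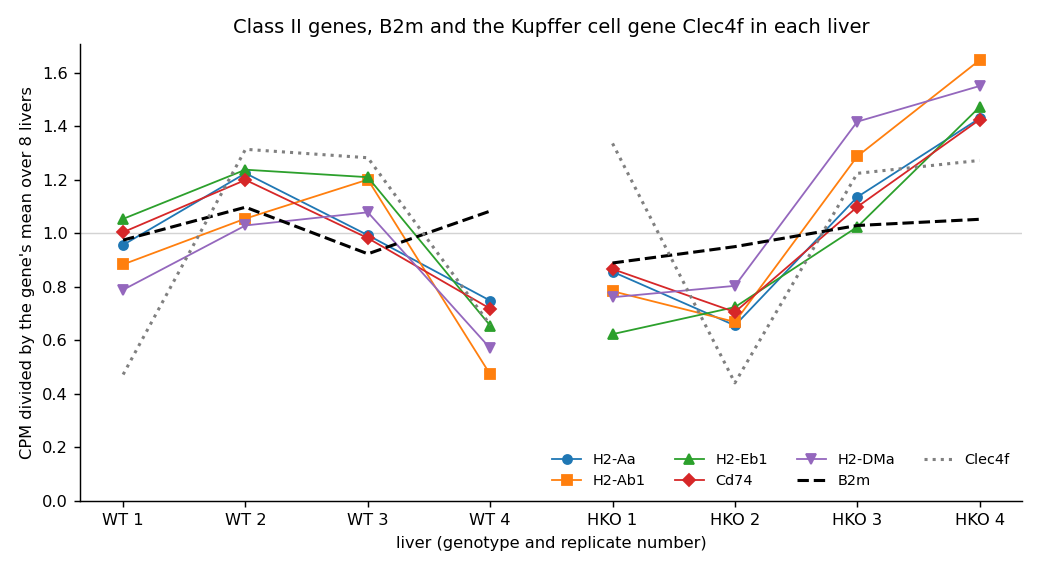
CPM of each gene divided by its own mean over the 8 livers (y axis, no unit), by liver (x axis); colours mark H2-Aa, H2-Ab1, H2-Eb1, Cd74 and H2-DMa, the black dashed line B2m and the grey dotted line the Kupffer cell gene Clec4f, and lines join livers of 1 genotype only to aid the eye. The coloured points move together, high in HKO liver 4 and low in WT liver 4, while B2m stays near 1.

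Of 12386 other tested genes, those whose genotype-centred log2 CPM was most like the mean of H2-Aa, H2-Ab1, H2-Eb1 and Cd74 over the 8 livers were Daxx (r = 0.977), Klhl20 (0.976), Lrfn3 (0.963), Golga2 (0.962) and Sft2d1 (0.952). For the mean of H2-K1, H2-D1 and B2m they were Tifa (0.983), Siah1a (0.974), Arpc2 (0.970), Zfp707 (0.967) and Cdt1 (0.957). With so many genes and 8 livers, values of this size are the top of a long list. None of these 10 genes passed the edgeR test between genotypes, and the lowest adjusted p among them was 0.152 (Daxx, log2 fold change 0.37).

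Markers of the cells that make class II molecules were set beside these levels. Dendritic cell markers (10 genes, 4 tested) summed to 5.26 to 10.1 CPM in WT and 6.10 to 8.70 CPM in HKO livers, and B cell markers (10 genes, 8 of them measured and 1 tested) to 1.49 to 3.53 and 1.62 to 4.68 CPM. The B cell sum was highest in HKO liver 4, where class II genes were highest, and the dendritic cell sum in WT liver 3. Monocyte and macrophage markers summed to 141 to 227 CPM in WT and 131.2 to 239.8 CPM in HKO livers, Kupffer cell markers to 160 to 284 and 225 to 623 CPM, and for both lists HKO liver 2 was the lowest HKO liver. C6, a complement gene that hepatocytes also make, gave 78.1 to 158 CPM of the Kupffer cell sum in WT and 167.1 to 451 CPM in HKO livers. Clec4f, a Kupffer cell gene, was lowest in HKO liver 2 (18.99 CPM) and WT liver 1 (20.3 CPM). T and NK cell markers summed to 1.49 to 3.73 CPM in WT and 4.001 to 6.34 CPM in HKO livers without overlap, with 1 of the 11 genes tested. Without Cd4 the sums overlapped, at 1.24 to 3.13 CPM in WT and 1.86 to 3.91 CPM in HKO livers. Divided by Ptprc, a gene of all leukocytes, H2-Aa ranged from 0.613 to 1.03 in WT and from 0.519 to 0.952 in HKO livers. The part of cell numbers in the class II levels was not tested.

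Of the single markers, Ccr2, a chemokine receptor of recruited monocytes, was lower in HKO livers, at 2.04 to 3.71 CPM against 4.75 to 5.54 CPM (log2 fold change -0.81, adjusted p = 0.0397, edgeR), and it lost the call without any 1 of WT livers 1 to 4 or HKO livers 1 and 4 (adjusted p 0.0742 to 0.105). The other markers tested for dendritic, B, T and NK, macrophage, Kupffer, endothelial, stellate and bile duct cells and neutrophils did not pass in edgeR, while DESeq2 called 1 Kupffer cell gene and 1 T and NK cell gene higher and limma-voom 1 Kupffer cell gene. Their log2 fold changes were 0.04 for Clec9a, 0.46 for Xcr1, -0.23 for Zbtb46, 0.05 for Cd22, 1.84 for Cd4, 0.26 for Mpeg1, 0.86 for Itgam, 1.55 for C6 and -1.08 for Marco. Those of S100a8, S100a9 and Csf3r were 0.36, 0.92 and -0.07, and those of Kdr, Lyve1, Dcn, Reln, Pdgfrb, Spp1 and Epcam were 0.69, -0.51, -0.07, 0.23, -0.48, 0.00 and 3.11. Without HKO liver 2, which was highest for Epcam, S100a9 and Itgam, their values were 0.43, 0.30 and 0.09. That liver was also highest for S100a8 and Spp1, which turned to -0.70 and -0.37 without it. Of 10 hepatocyte markers, 5 were called higher in HKO livers and 0 lower (50% called, beside 5.03% of all genes), while the summed level of the list overlapped, at 94416 to 125746 CPM in WT and 87409 to 140643 CPM in HKO livers. Serpina1a (0.61), Serpina1c (0.90), Tat (0.87), Cps1 (1.26) and Hnf4a (0.36) rose in HKO livers at adjusted p 0.0244, 0.0219, 0.0165, 0.00433 and 0.0406 (edgeR), while Alb (-0.03), Apob (-0.11), Ttr (-0.08), Apoa1 (0.49) and Asgr1 (0.13) did not pass. With 1 liver left out, 1 to 4 of these 5 calls held: 1 (Cps1) without WT liver 1, 2 (Cps1 and Tat) without WT liver 2, WT liver 3 or HKO liver 4, and 3 without HKO liver 3. Their part in the levels of class I genes, which hepatocytes also make, was not tested.

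The pathway around the 10 genes was described by 7 further lists with 62 tested genes, of which 1 was higher and 3 were lower in HKO livers (6.45%, beside 5.03% over all genes). Of these 62, 3 were higher and 7 lower without overlap (16.1%, beside 12.5%). The lists' median log2 fold change was -0.02. The count of calls fell to 0 without WT liver 1, WT liver 2 or HKO liver 2, and was 1 without HKO liver 4 and 2 without HKO liver 3.

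The list nearest to H2-K1 and H2-D1 was that of the other class I heavy chains. H2-Q10, a class I chain that the liver secretes, was at 1592, 1484, 1127 and 1336 CPM in WT livers and at 958, 975, 830 and 1046 CPM in HKO livers. All 4 HKO livers lay below all WT livers, and the log2 fold change was -0.54 ± 0.12 (SE; adjusted p = 0.0250, edgeR). Without WT liver 1, WT liver 2, HKO liver 2 and HKO liver 3 in turn, the adjusted p was 0.0840, 0.0931, 0.0527 and 0.0596. Cd1d1, which presents lipids to NKT cells, was at 230, 230, 190 and 212 CPM in WT livers and 172, 181, 148 and 172 CPM in HKO livers. It was lower by -0.36 ± 0.09 on the log2 scale (SE; adjusted p = 0.0454, edgeR), and the call held without WT liver 3. It was lost without any other single liver (adjusted p 0.0589 to 0.151), with limma-voom (0.0516) and without the expression filter (0.0509).

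Of the 16 other class I heavy chains tested, 13 had a negative log2 fold change, as did 5993 of all 12395 genes tested. The median of the 16 was -0.25, beside 0.01 over all genes. Of the 16, 2 passed (12.5%, beside 5.03% of all genes) and 14 did not. H2-Q1 had the most negative value at -1.51 (adjusted p = 0.154, edgeR), without overlap between the genotypes. It passed with limma-voom (-1.81, adjusted p = 0.0432) and without HKO liver 3 (-1.18, adjusted p = 0.0361, edgeR). H2-Q7 had the most positive value at 0.27 (adjusted p = 0.481, edgeR). H2-Q1, H2-Q7, H2-Q10 and Cd1d1 had fractional counts in 8 of 8 livers, as H2-K1 and H2-D1 did. Added up, the 19 class I heavy chains of the H2 region reached 2853, 2730, 2249 and 2441 CPM in WT livers and 1975, 2106, 1978 and 2269 CPM in HKO livers. Only HKO liver 4 overlapped with a WT liver, and the log2 fold change of the sum was -0.30 ± 0.10 (SE; adjusted p = 0.126, edgeR). H2-Q10 made up 53.7% of this sum in WT and 45.7% in HKO livers on average, H2-K1 24.8% and 30.4%, and H2-D1 12.003% and 13.2%.

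The loading of peptides onto class I molecules was described by a further list. In it, 0 of 8 genes passed the edgeR test (median log2 fold change -0.02), with 1 at an unadjusted p under 0.05 (over all genes 19.8%), and 1, Erap1, passed with DESeq2 and 0 with limma-voom. Calr, an abundant chaperone of the endoplasmic reticulum, gave 0.04, and Tap1, a subunit of the peptide pump, -0.22 (adjusted p = 0.928 and 0.297, edgeR). Erap1, which trims peptides in the endoplasmic reticulum, was at 182 to 209.5 CPM in WT and 226 to 239 CPM in HKO livers, without overlap, but did not pass (0.23, adjusted p = 0.101, edgeR; 0.0225 with DESeq2).

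A list of 6 genes held subunits of the immunoproteasome and of proteasome activators. In it Psmb8, whose subunit replaces a standard one when peptides for class I are cut, was higher in HKO livers. It was at 13.2, 11.1, 11.4 and 11.7 CPM in WT livers and at 13.5, 17.6, 18.99 and 17.3 CPM in HKO livers. The lowest HKO liver was barely above the highest WT liver, and the log2 fold change was 0.51 ± 0.12 (SE; adjusted p = 0.0375, edgeR). The call held without HKO liver 1 and was lost without any other single liver (adjusted p 0.0602 to 0.125) and under scaling by the total count (0.0740). Its partner subunit Psmb9 gave -0.24 (adjusted p = 0.450) and the activator subunit Psme3 -0.01 (adjusted p = 0.940, edgeR).

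The ratio of Psmb8 to Psmb9, in estimated counts, was 2.35, 2.30, 2.05 and 2 in WT livers and 3.33, 4.07, 3.47 and 3.69 in HKO livers. The groups did not overlap, with a log2 difference of 0.74 (p = 0.0286, again the smallest the exact permutation test allows; adjusted p = 0.114 over the 8 ratios). Leaving out 1 liver gave 0.687 to 0.783. Tap1 over Tap2 overlapped between the genotypes (exact permutation p = 0.714), as did H2-Ab1, H2-Eb1 and Cd74 over H2-Aa and H2-DMb1 over H2-DMa (exact permutation p = 0.314, 0.429, 0.514 and 0.343).

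**Figure D4:**
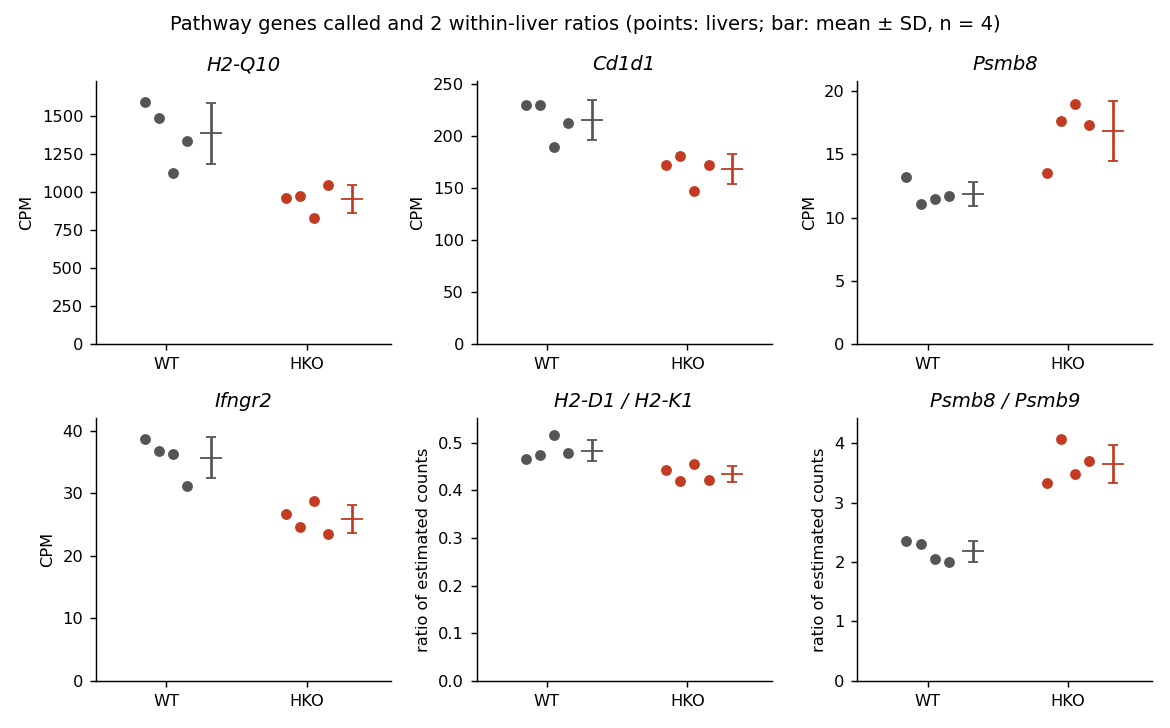
CPM of H2-Q10, Cd1d1, Psmb8 and Ifngr2 and the ratios of H2-D1 to H2-K1 and of Psmb8 to Psmb9 (y axes, linear from 0) in 4 WT (grey) and 4 HKO (red) livers; points run from liver 1 to 4 and bars give the mean ± SD (n = 4). The HKO points lie below the WT points for H2-Q10, Cd1d1, Ifngr2 and the first ratio, and above them for Psmb8 and the second.

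The class II processing list, described next, held enzymes that prepare peptides for class II, and also Marchf1 and Marchf8. Of the 8 genes tested in this list, 0 passed the edgeR test (median -0.03). Without overlap, 1 was higher (Ctsl) and 2 were lower (Ctsd and Marchf8), or 37.5% beside 12.5% of all tested genes. At an unadjusted p under 0.05 there were 3, beside 19.8% of all genes, and DESeq2 called 1 higher and 1 lower, limma-voom 0. Ctsl, cathepsin L, was at 493 to 629 CPM in WT and 632 to 822 CPM in HKO livers (0.42 ± 0.11, adjusted p = 0.0509, edgeR). It passed in 4 of 10 other settings, at an adjusted p of 0.00625 with DESeq2 and 0.0460 to 0.04998 in edgeR. Of 8 fits with a liver left out, it passed in 1, without HKO liver 1 (0.0317, edgeR). Ctsd, cathepsin D, was at 187 to 231 CPM in WT and 154.8 to 186 CPM in HKO livers (-0.31 ± 0.09, adjusted p = 0.0706, edgeR). It passed in 2 of 10 other settings, DESeq2 (adjusted p = 0.0267) and total count scaling (0.0410, edgeR). Of 8 fits with a liver left out, it passed in 1, without WT liver 4 (0.0324, edgeR).

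Among 12 transcription factors of MHC genes, 0 passed in edgeR (5.03% of all genes did), DESeq2 or limma-voom, and 2 had an unadjusted p under 0.05 (19.8% of all genes did). Of the 12, 10 had a positive log2 fold change (median 0.12), as did 6402 of all 12395 genes tested (median 0.01). Irf2, an interferon regulatory factor, gave 0.30 (adjusted p = 0.102), Nfya, a subunit of the Y box factor NF-Y, -0.21 (0.427), Rfx5 0.13 (0.663) and Nlrc5, the class I coactivator, 0.12 (0.719, edgeR). In the interferon gamma list, whose pathway induces both MHC classes, 1 of 9 tested genes passed (11.1%, beside 5.03% of all genes). Ifngr2, the signalling chain of the interferon gamma receptor, was at 38.7, 36.9, 36.3 and 31.2 CPM in WT livers and at 26.7, 24.7, 28.8 and 23.6 CPM in HKO livers. The genotypes did not overlap, and the log2 fold change was -0.46 ± 0.10 (SE; adjusted p = 0.0211, edgeR). Without WT liver 1, WT liver 2, HKO liver 2 and HKO liver 4 in turn, the adjusted p was 0.0728, 0.0810, 0.0538 and 0.0625. Jak1, a kinase of that receptor, gave 0.20 (adjusted p = 0.414, edgeR). Of the 3 costimulation genes tested, 0 passed in edgeR, DESeq2 or limma-voom and 1 had an unadjusted p under 0.05 (19.8% of all genes did), with -0.63 for the adhesion molecule Icam1 (adjusted p = 0.108, edgeR).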

How the data were processed

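Liver RNA of 4 WT and 4 HKO mice was sequenced. Both rRNA depletion and a kit for small RNA appear in the labels, so the library type is uncertain. The authors deposited estimated counts per gene, not normalized, from Partek's expectation-maximization step, which can split a read between features; the submitters' processing notes also name STAR, with no version, and a build and strand setting are not given in the sources used here. Coordinates were taken as listed and read as GRCm38 (RefSeq, GRCm38.p6). Estimated counts were rounded and tested in edgeR 4.0.16 (R 4.3.3): TMM scaling, expression filter with minimum count 10, robust quasi-likelihood test, Benjamini-Hochberg adjustment over 12395 genes, threshold 0.05. Log2 CPM used a prior count of 2. Lengths are those of the longest protein-coding GENCODE transcript. Ratios were compared by two-sided exact permutation. The members, gene lists and rule for named genes (called genes, the most abundant and the largest changes of each list, and the 5 genes most like each class) were chosen with earlier results of these data known. Alternatives were DESeq2 1.42.0, limma-voom 3.58.1, upper quartile, RLE or total count scaling, other filters, legacy quasi-likelihood, summed paralogs, the replicate number as a block, and each liver left out. On simulated counts for 12395 genes with this comparison's depths, edgeR recovered 77% of genes changed by 1 and 94% of those changed by 2 on the log2 scale, with 6.04% false calls.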

Additional observations from a re-analysis of the deposited data

Results flagged for a closer look

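In 12 of 164 groups of 4 livers examined, 1 liver stood far from the other 3 by Dixon's criterion. For separate groups not picked by their values, chance alone gives about 1 in 20, or 8.2. Many genes here were picked for the largest change of their list, which 1 extreme liver can produce, and the sums hold some of the same genes. The 12 can therefore not be judged against the 8.2. WT liver 4 had an H2-DMb1 to H2-DMa ratio of 0.500, against 1.08 to 1.18 in the other WT livers; H2-DMb1 rested on 5 counts there. WT liver 4 also stood apart for Itgam (2.10 CPM against 0.838 to 1.04) and C6 (158 CPM against 78.1 to 86.9). It was low for Klhl20 (9.99 CPM against 12.4 to 12.9) and Lrfn3 (1.38 CPM against 2.51 to 2.59) too. Both were picked in these same livers for likeness to H2-Aa, H2-Ab1, H2-Eb1 and Cd74, for which WT liver 4 was the lowest WT liver. Their low values there are therefore no separate observation, though they count among the 12.

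HKO liver 2 stood apart in Epcam (16.5 CPM against 0.451 to 1.02), S100a9 (2.93 CPM against 0.851 to 0.958), the summed neutrophil markers (9.03 CPM against 2.59 to 3.41) and, on the low side, Xcr1 (0.695 CPM against 1.08 to 1.13). WT liver 1 had the lowest Kupffer cell sum, 160 CPM against 265 to 284. In WT liver 4, however, C6 gave 158 of the 265 CPM, against 86.9 CPM in WT liver 1. Clec4f was at 20.3 and 28.3 CPM in WT livers 1 and 4, and at 56.6 and 55.3 CPM in WT livers 2 and 3. A sum without C6 was not computed. Pdgfrb was 7.29 CPM in HKO liver 1 against 3.78 to 4.34, and Hnf4a was 471 CPM in WT liver 3 against 435 to 441. The causes were not tested.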

How the results depend on the processing

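Of the 9 MHC genes, 0 were called higher and 0 lower in each of the 18 fits of single genes, apart from H2-DMb1 not tested with at least 10 counts in every liver. Genes of the pathway lists called higher were 1, but 3 with DESeq2, 2 with RLE scaling, without the expression filter or with at least 10 counts in every liver, 0 with total count scaling or the replicate block, and 0 to 2 with a liver left out; those called lower were 3, but 5 with total count scaling, 4 with DESeq2, 2 without the expression filter and 0 to 3 with a liver left out. Over all genes, 206 were higher and 418 lower, with DESeq2 385 and 629, with total count scaling 119 higher (16.1% of its 740 calls, against 33.0% of 624), and with a liver left out 61 to 230 and 151 to 368; WT livers 1 and 2 and HKO liver 4 moved these counts most (272, 212 and 364 calls without them). Same-numbered livers did not deviate together (r = -0.062, 0.015, -0.085 and -0.155), and the replicate block left 456 calls, with Psmb8, Ccr2 and Hnf4a no longer past the threshold (adjusted p = 0.111, 0.0918 and 0.104). Under total count scaling the log2 fold changes of H2-Aa, Cd74, Calr, Clec9a, Cd22, Golga2, Siah1a, Arpc2 and Spp1 turned to -0.049, -0.034, -0.043, -0.069, -0.068, -0.056, -0.069, -0.011 and -0.068. With limma-voom S100a8 was -0.27 and Spp1 -0.10, and Spp1 was -0.0015 with at least 10 counts in every liver and -0.10 with the replicate block. With 1 liver left out, signs turned within these ranges: H2-K1 -0.045 to 0.044, H2-Aa -0.15 to 0.22, H2-Eb1 -0.39 to 0.043, Cd74 -0.13 to 0.21, Calr -0.041 to 0.21, Psme3 -0.029 to 0.010, Clec9a -0.16 to 0.30, Zbtb46 -0.42 to 0.21, Cd22 -0.21 to 0.47, S100a8 -0.70 to 0.78, Csf3r -0.48 to 0.15, Dcn -0.11 to 0.019, Spp1 -0.37 to 0.17, Alb -0.20 to 0.14, Golga2 -0.047 to 0.10, Sft2d1 -0.21 to 0.022, Siah1a -0.063 to 0.11, and the log2 ratio differences of H2-K1 to B2m -0.0083 to 0.10, Cd74 to H2-Aa -0.0033 to 0.053 and Tap1 to Tap2 -0.14 to 0.029. The causes were not tested. Counts of 1 to 29 limit Ciita, H2-DMa and H2-DMb1.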
